A study of Mus musculus with 16 samples.

Results

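The genes described here are 8 mouse genes of neurotrophin and GDNF signalling, taken by symbol from the authors' normalized table, in which they make up 8 of 21220 genes. They are the ligands Bdnf, Ntf3 and Gdnf, the neurotrophin receptors Ntrk2, Ntrk3 and Ngfr, and the GDNF receptor components Ret and Gfra1. All 8 had enough reads to be tested. Their RNA was measured in 16 libraries of cultured organ of Corti, the hearing epithelium of the inner ear, in 4 groups of 4 libraries. The groups were Rest(+/deltaExon4) with FK228, Rest(+/deltaExon4) with solvent, wild type with FK228 and wild type with solvent. Rest encodes a repressor of neuronal genes, and the mutant mice carry 1 allele without exon 4. FK228, or romidepsin, inhibits class I histone deacetylases. All cultures came from C57BL/6 pups at postnatal day 0, were kept for 3.5 days, and received 2 nM FK228 or 0.1% DMSO at days 1 to 1.5 and 3 to 3.5. Each library pooled 6 to 8 cultures. Since no label says whether pools came from separate litters, p-values measure the spread among pools, which may be technical.

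BDNF, encoded by Bdnf, and neurotrophin 3, encoded by Ntf3, are secreted proteins that bind the receptor tyrosine kinases TrkB (Ntrk2) and TrkC (Ntrk3). The p75 receptor (Ngfr) binds all neurotrophins and has no kinase domain. In the cochlea, neurotrophins made in the sensory epithelium keep spiral ganglion neurons alive and guide their fibres. GDNF binds the membrane-anchored co-receptor encoded by Gfra1, and the pair activates the kinase encoded by Ret.

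On GRCm38, in the GENCODE M21 annotation, Bdnf lies at chr2:109674700-109727007 on the plus strand, Ntf3 at chr6:126101412-126166910 on the minus strand and Gdnf at chr15:7810846-7837575 on the plus strand. Ntrk2 lies at chr13:58806569-59133970 on the plus strand, Ntrk3 at chr7:78175959-78738012 on the minus strand and Ngfr at chr11:95568818-95587735 on the minus strand. Ret lies at chr6:118151745-118197718 and Gfra1 at chr19:58235604-58455909, both on the minus strand. Each value counts reads over all annotated exons of a gene.

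Library depth was 12361027 to 14153838 gene counts in heterozygous FK228, 14627922 to 15674930 in heterozygous solvent, 16224586 to 17656274 in wild-type FK228 and 17462876 to 23611571 in wild-type solvent libraries. Rest itself was at 75.8 to 87.3 CPM (counts scaled to a library of 1000000 reads) in heterozygous FK228, 78.1 to 94.8 CPM in heterozygous solvent, 69.9 to 79.9 CPM in wild-type FK228 and 75.2 to 86.4 CPM in wild-type solvent libraries. Whole-gene counts do not test for the missing exon. Reads outside genes made up 11.2% of reads in heterozygous solvent library 4 and 11.6% in wild-type solvent library 1, and 13.9% to 22.2% in the other libraries. All changes are relative to the bulk of transcripts: scaling to spike-in RNA instead shifted the median log2 fold change over all genes to -0.72 for FK228 in heterozygous and -0.16 for FK228 in wild-type cultures. With that scaling the median was -0.74 for genotype with FK228, -0.18 for genotype in solvent and -0.89 for heterozygous FK228 against wild-type solvent. Only genes with enough reads were tested, so every tested marker of hair cells, supporting cells, neurons and Schwann cells had reads by design. That these markers were tested does not show how many such cells the cultures held.

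Per kilobase of exon, the co-receptor gene Gfra1 had the highest mean level of the 8 genes in all 4 groups. It stood at 6.49 ± 1.35 CPM per kb in heterozygous FK228, 7.12 ± 0.95 in heterozygous solvent, 6.71 ± 0.81 in wild-type FK228 and 8.13 ± 1.96 in wild-type solvent libraries (mean ± SD, n = 4 each). Ntf3 and Ngfr came next in every group, at group means of 3.34 to 5.81 CPM per kb. Bdnf, Ntrk2 and Ret formed a lower tier with group means of 0.430 to 1.49 CPM per kb. Gdnf and Ntrk3 were lowest, at group means of 0.0790 to 0.382 CPM per kb.

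Several neighbours in this order overlapped in wild-type solvent libraries. Gfra1 spanned 6.90 to 11.1 CPM per kb and Ntf3 4.86 to 7.36, while Ngfr spanned 2.39 to 4.91. Bdnf, at 1.34 to 1.80 CPM per kb, could not be ordered against Ntrk2, at 1.23 to 1.73. Gdnf, at 0.183 to 0.547 CPM per kb, overlapped both Ret, at 0.501 to 0.833, and Ntrk3, at 0.204 to 0.434. With FK228 Ntrk2 lay below Ret in mean level, at 0.459 ± 0.0194 against 0.670 ± 0.149 CPM per kb in heterozygous and 0.5997 ± 0.130 against 0.688 ± 0.121 in wild-type cultures. The exon lengths of Ntrk2 (19292 bases) and Ntrk3 (30170 bases) are sums over all annotated isoforms, including those of truncated receptors, so a level per kb understates these genes where shorter isoforms were made. The counts do not separate full-length from truncated receptors.

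**Figure D1:**
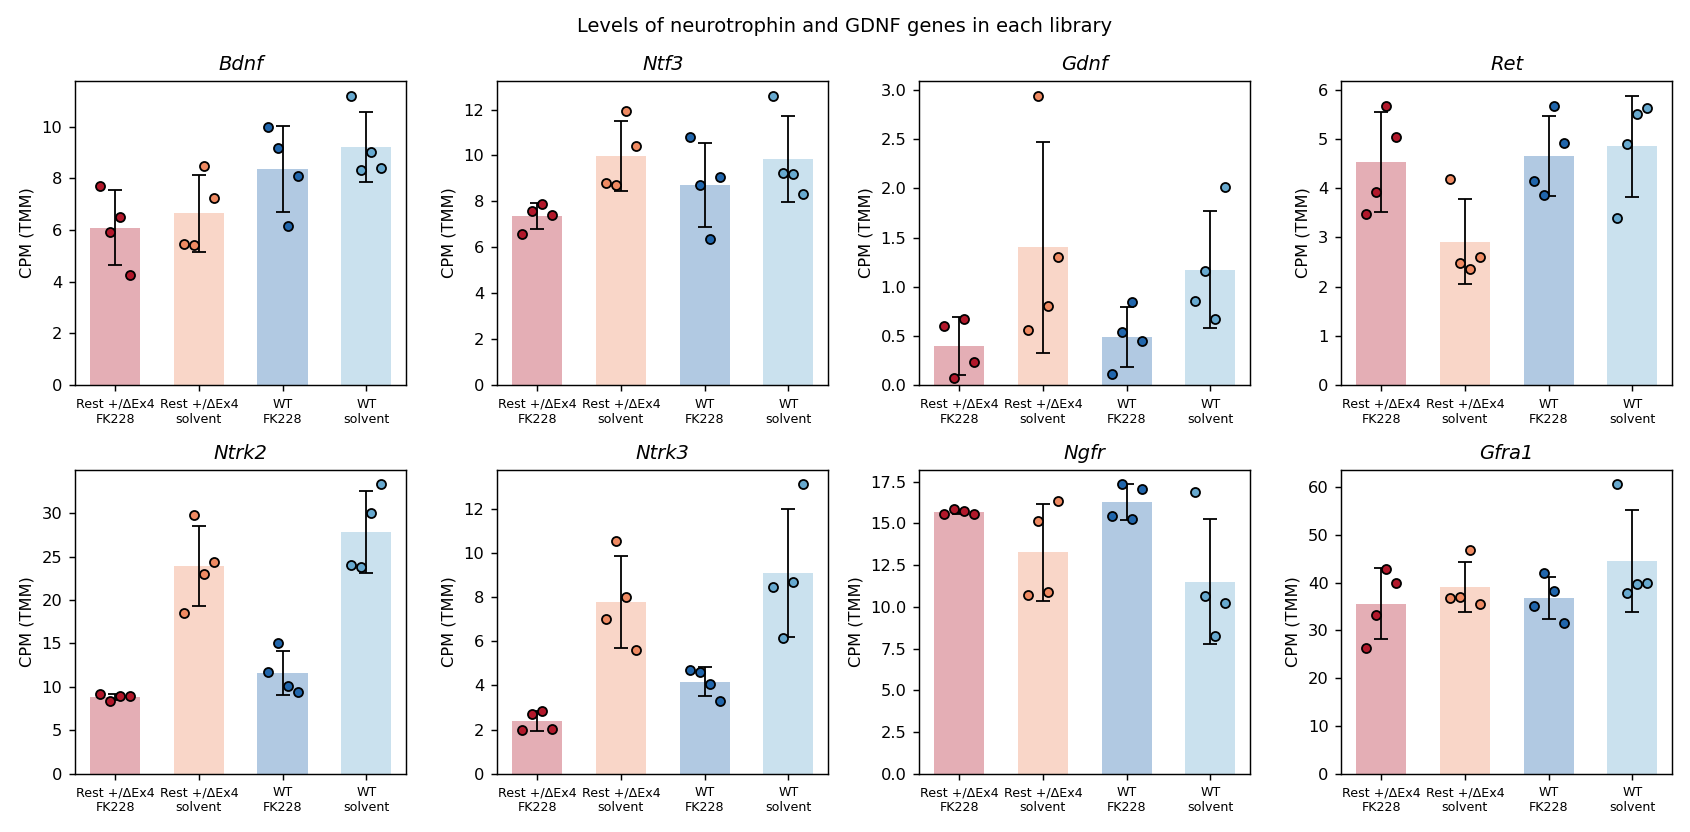
CPM (TMM-scaled) of the 8 genes in each library, with 1 panel per gene, points for libraries, bars for group means and error bars for the SD of 4 libraries. Ntrk2 sits between 8.34 and 15.05 CPM in the 8 FK228 libraries and between 18.5 and 33.3 CPM in the 8 solvent libraries.

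The comparison of FK228 with solvent asked how the deacetylase inhibitor changed these genes in each genotype. The Trk receptor genes fell in both genotypes. Ntrk2, which encodes the BDNF receptor TrkB, had 9.22, 8.34, 8.99 and 8.89 CPM in heterozygous FK228 libraries 2 to 5, against 18.5, 29.8, 23.0 and 24.4 CPM in heterozygous solvent libraries 1, 2, 4 and 5. In wild-type FK228 libraries 1, 2, 4 and 7 it had 11.7, 15.05, 10.1 and 9.45 CPM, against 24.0, 23.8, 30.1 and 33.3 CPM in wild-type solvent libraries 1 to 4. In both genotypes every FK228 library was below every solvent library. The log2 fold change was -1.43 ± 0.17 (SE, adjusted p = 1.39e-06), a 2.70-fold fall, in heterozygous cultures. It was -1.26 ± 0.16 (adjusted p = 4.27e-06), a 2.40-fold fall, in wild-type cultures.

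Ntrk3, which encodes the neurotrophin 3 receptor TrkC, had 1.97, 2.69, 2.84 and 2.05 CPM in heterozygous FK228 libraries 2 to 5, against 6.99, 10.5, 8.01 and 5.62 CPM in heterozygous solvent libraries 1, 2, 4 and 5. Wild-type FK228 libraries 1, 2, 4 and 7 held 4.71, 4.59, 4.05 and 3.28 CPM, against 8.45, 6.16, 8.69 and 13.1 CPM in wild-type solvent libraries 1 to 4. Again the treated and solvent libraries did not overlap in either genotype. The log2 fold change was -1.70 ± 0.25 (adjusted p = 1.96e-05), a 3.25-fold fall, in heterozygous cultures and -1.13 ± 0.23 (adjusted p = 0.00057), a 2.19-fold fall, in wild-type cultures. Both Trk genes passed the test in both genotypes under all 10 alternative settings and in all 16 fits that left out a library.

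Schwann cell markers, which include Sox10, summed to 245 CPM (218 to 289) in heterozygous FK228 and 501 CPM (479 to 516) in heterozygous solvent libraries. They summed to 282 CPM (264 to 322) in wild-type FK228 and 532 CPM (468 to 585) in wild-type solvent libraries. Mesenchyme markers summed to 2594 CPM (2378 to 2714) in heterozygous FK228 and 4955 CPM (4191 to 5558) in heterozygous solvent libraries. They summed to 2659 CPM (2330 to 2897) in wild-type FK228 and 4695 CPM (4003 to 5167) in wild-type solvent libraries. Counted singly, 8 of 9 Schwann cell markers fell in heterozygous and 7 of 9 in wild-type cultures, and 0 rose. Of 11 mesenchyme markers 9 fell and 1 rose in heterozygous and 10 fell and 1 rose in wild-type cultures. Over all genes 24.7% fell in heterozygous and 25.3% in wild-type cultures. Both sums moved in the direction of the Trk genes. So did the mean sums of macrophage, endothelial, supporting cell and melanocyte markers in both genotypes, so this direction does not single out a cell type. Mean TMM-scaled sums of neuron and hair cell markers rose in both genotypes. The median log2 fold change of hair cell markers was nevertheless -0.76 in heterozygous and -0.49 in wild-type cultures. The part of any of these cell types in the fall of the Trk genes was not tested. In bulk RNA, fewer cells of a type and less RNA per cell cannot be told apart.

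Ngfr, which encodes p75, rose in wild-type cultures, where the Trk genes fell. It had 15.4, 17.3, 15.3 and 17.04 CPM in wild-type FK228 libraries 1, 2, 4 and 7, against 16.9, 10.7, 8.24 and 10.2 CPM in wild-type solvent libraries 1 to 4. Solvent library 1 lay within the range of the treated libraries, and the other solvent libraries were below all of them. The rise of 0.49 ± 0.18 on the log2 scale (adjusted p = 0.0296), or 1.41-fold, was 0.74 without wild-type solvent library 1 (adjusted p = 0.00068). It missed the threshold with spike-in scaling (0.38, adjusted p = 0.118) and when wild-type FK228 library 2 or 7, or solvent library 2, 3 or 4 of the same genotype, was left out (adjusted p up to 0.105).

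Heterozygous FK228 libraries 2 to 5 held 15.6, 15.9, 15.7 and 15.6 CPM of Ngfr, against 10.7, 15.1, 10.9 and 16.4 CPM in heterozygous solvent libraries 1, 2, 4 and 5. The treated libraries were nearly equal, and solvent library 5 was above all of them. The log2 fold change was 0.24 ± 0.18 (adjusted p = 0.290), and it turned to -0.48 (adjusted p = 0.0333) with spike-in scaling.

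The part of promoter sequence in the FK228 results was not tested. Promoter windows of Ntrk2 and Ngfr are printed here as a description only. They are 300 bases long, from 250 bases before a RefSeq transcript start to 50 after it, on GRCm38.p6. For Ngfr that start differs from the GENCODE start given above. The windows are written 5′ to 3′ on the strand of the gene. Capitals mark the GC box, GGGCGG, or its reverse complement CCGCCC. The Ntrk2 window is chr13:58806319-58806618 on the plus strand, and the Ngfr window is chr11:95587649-95587948 on the minus strand.
Ntrk2: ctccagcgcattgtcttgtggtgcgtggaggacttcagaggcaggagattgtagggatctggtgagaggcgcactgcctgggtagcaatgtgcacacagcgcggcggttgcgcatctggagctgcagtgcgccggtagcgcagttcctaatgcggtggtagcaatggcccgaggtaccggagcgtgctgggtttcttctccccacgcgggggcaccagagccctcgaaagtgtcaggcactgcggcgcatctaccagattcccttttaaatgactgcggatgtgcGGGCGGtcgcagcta
Ngfr: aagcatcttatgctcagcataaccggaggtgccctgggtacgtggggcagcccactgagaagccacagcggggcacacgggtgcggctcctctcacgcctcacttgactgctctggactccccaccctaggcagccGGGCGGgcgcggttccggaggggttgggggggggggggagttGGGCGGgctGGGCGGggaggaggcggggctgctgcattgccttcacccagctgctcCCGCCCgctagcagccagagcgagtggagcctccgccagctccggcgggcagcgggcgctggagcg

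The Ngfr window holds 4 GC boxes and 71.7% G and C, and the Ntrk2 window holds 1 GC box and 61.3% G and C. The median over all windows is 52.7% G and C. At least 1 GC box on either strand occurs in 35.7% of all 32851 RefSeq promoter windows of this length. Windows were matched for 6 of the 8 genes, 14 in all, with none printed for Ntrk3 and Ret. Searched on both strands, they held no left arm of the REST-binding element (TTCAGCACC, in 0.371% of all windows), no right arm (GACAGCGCC, in 0.326%) and no cyclic AMP response element (TGACGTCA, in 1.79%). The E-box CACGTG occurred in 1 of the Ntf3 windows and in 7.15% of all windows. None of these motifs is contained in another. Only exact matches to these letters inside these windows were counted, so other forms of a motif and sites elsewhere were not seen. At the rates given for the REST arms, 14 windows would rarely hold such a match, so their absence says little about REST binding.

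Of the neurotrophin ligands, Bdnf was not called in either genotype. It averaged 6.09 ± 1.44 CPM in heterozygous FK228 and 6.66 ± 1.49 CPM in heterozygous solvent libraries (SD, n = 4 each). It averaged 8.36 ± 1.66 CPM in wild-type FK228 and 9.23 ± 1.36 CPM in wild-type solvent libraries. Treated and solvent libraries overlapped, and the log2 fold changes were -0.13 ± 0.21 (adjusted p = 0.642) in heterozygous and -0.15 ± 0.20 (adjusted p = 0.566) in wild-type cultures. Both estimates changed sign, to 0.16 and 0.13, when the share of reads outside genes was a covariate. An annotated antisense gene overlaps Bdnf exons, and it held at most 2 reads in any library.

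Ntf3 had 6.58, 7.58, 7.91 and 7.40 CPM in heterozygous FK228 libraries 2 to 5, against 8.81, 8.71, 11.9 and 10.4 CPM in heterozygous solvent libraries 1, 2, 4 and 5. All treated libraries were below all solvent libraries, and the log2 fold change of -0.43 ± 0.17 (adjusted p = 0.0468) was a 1.35-fold fall. That call was lost with limma voom, without a filter and with the share of reads outside genes as a covariate (-0.22, adjusted p = 0.235). It was also lost in 10 of the 16 fits without 1 library: heterozygous solvent 4 or 5, heterozygous FK228 2, 3, 4 or 5, wild-type solvent 2 or 3 and wild-type FK228 2 or 7 (adjusted p up to 0.146). In wild-type cultures Ntf3 averaged 8.72 ± 1.83 CPM with FK228 and 9.85 ± 1.89 CPM with solvent (SD, n = 4 each; log2 fold change -0.18 ± 0.17, SE, adjusted p = 0.407).

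Gdnf was the most weakly counted member, with 1 to 45 reads per library. It had 0.605, 0.0689, 0.676 and 0.236 CPM in heterozygous FK228 libraries 2 to 5, against 0.559, 2.95, 0.808 and 1.30 CPM in heterozygous solvent libraries 1, 2, 4 and 5. Treated libraries 2 and 4 were above solvent library 1, so the groups overlapped. The log2 fold change was -1.81 ± 0.64 (adjusted p = 0.0265), a 3.50-fold fall, and -1.15 (adjusted p = 0.159) without solvent library 2. The call was also lost without heterozygous FK228 library 3 or 5 and with the sex mix of the pools as a covariate (adjusted p up to 0.081).

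In wild-type FK228 libraries 1, 2, 4 and 7 Gdnf had 0.114, 0.544, 0.845 and 0.453 CPM, against 0.859, 1.16, 0.673 and 2.01 CPM in wild-type solvent libraries 1 to 4. Treated library 4 was above solvent library 3, and the log2 fold change of -1.25 ± 0.61 missed the threshold (adjusted p = 0.0958). With the sex mix or the share of reads outside genes as a covariate it passed, at -1.49 (adjusted p = 0.0484) and -1.61 (adjusted p = 0.0491).

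Ret, the kinase of the GDNF receptor, had 3.48, 3.93, 5.68 and 5.04 CPM in heterozygous FK228 libraries 2 to 5, against 4.19, 2.49, 2.36 and 2.60 CPM in heterozygous solvent libraries 1, 2, 4 and 5. Solvent library 1 lay above treated libraries 2 and 3, and the other solvent libraries were below all treated ones. The rise of 0.64 ± 0.24 (adjusted p = 0.0345), or 1.56-fold, turned to -0.13 (adjusted p = 0.711) with spike-in scaling. It also missed the threshold without a filter, with only the compared groups in the fit, with the share of reads outside genes as a covariate, and without heterozygous solvent library 2, 4 or 5 or heterozygous FK228 library 4 or 5 (adjusted p up to 0.133). In wild-type cultures Ret averaged 4.65 ± 0.82 CPM with FK228 and 4.85 ± 1.03 CPM with solvent (SD, n = 4 each; log2 fold change -0.06 ± 0.23, SE, adjusted p = 0.857).

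Gfra1 averaged 35.6 ± 7.42 CPM in heterozygous FK228 and 39.0 ± 5.19 CPM in heterozygous solvent libraries, and 36.8 ± 4.46 CPM in wild-type FK228 and 44.5 ± 10.7 CPM in wild-type solvent libraries (SD, n = 4 each). Its libraries overlapped in both genotypes. The log2 fold changes of -0.13 ± 0.16 (adjusted p = 0.522) in heterozygous and -0.28 ± 0.16 (adjusted p = 0.159) in wild-type cultures did not pass. With spike-in scaling they were -0.86 (adjusted p = 6.25e-05) and -0.40 (adjusted p = 0.0458), beside the shift of all genes given above.

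**Figure D2:**
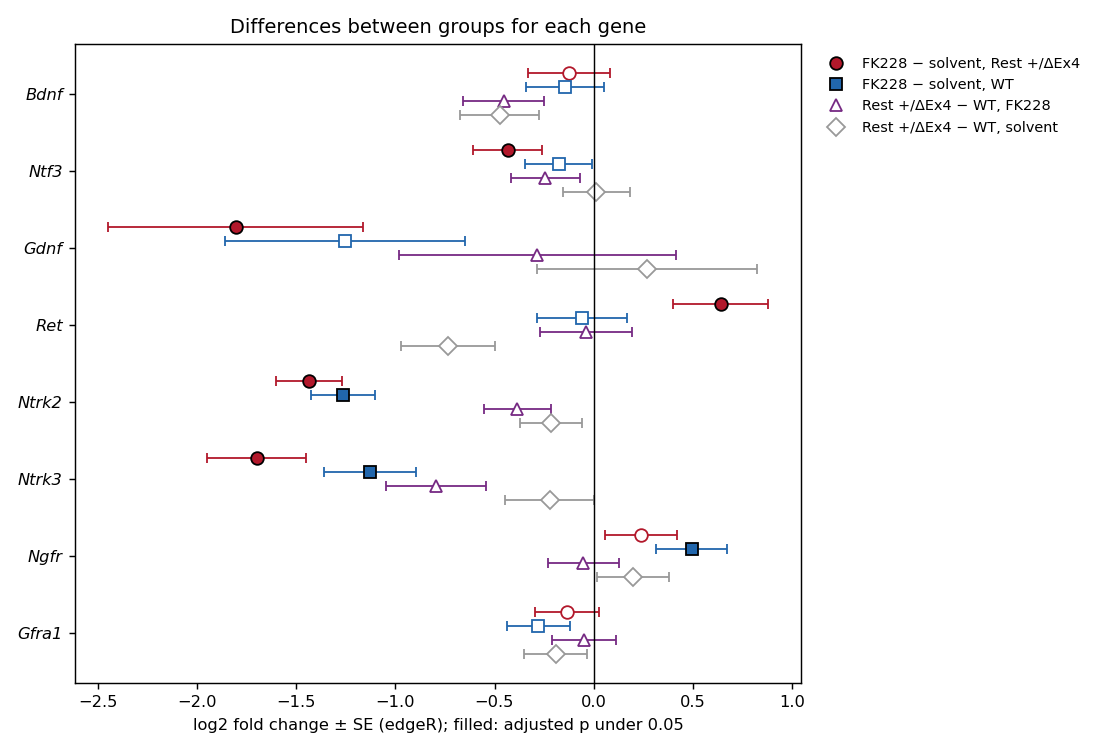
Log2 fold change of each gene with its SE, for FK228 against solvent and for Rest(+/deltaExon4) against wild type, with filled symbols for an adjusted p under 0.05. Filled symbols at -1.13 to -1.70 belong to Ntrk2 and Ntrk3, and no symbol of the genotype comparisons is filled.

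Counted over the 8 genes, FK228 gave 4 lower and 1 higher call in heterozygous cultures, where 48.4% of all 17125 genes tested were called, 24.7% lower and 23.8% higher. In wild-type cultures it gave 2 lower and 1 higher call, where 49.0% of all genes were called, 25.3% lower and 23.7% higher. With so many genes called, these counts say little about the 8 genes as a set. The heterozygous count of 5 was 3 without heterozygous solvent library 2, 4 or 5 or heterozygous FK228 library 3 or 4, and 2 without heterozygous FK228 library 5. With spike-in scaling it was 7, all lower. The median log2 fold change of the 8 genes was -0.28 in heterozygous and -0.23 in wild-type cultures, beside 0.0008 and -0.0058 for all genes. Treated and solvent libraries did not overlap for 3 of the 8 genes in heterozygous cultures (Ntf3, Ntrk2 and Ntrk3) and for 2 of 8 in wild-type cultures (Ntrk2 and Ntrk3), all lower, as were 21.5% and 22.8% of all genes.

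Ratios within a library set receptors against their ligands independently of the scaling. Ntrk2 over Bdnf, each in CPM per kb, was 0.490 (0.385 to 0.674) in heterozygous FK228 and 1.20 (0.875 to 1.77) in heterozygous solvent libraries. It was 0.452 (0.376 to 0.528) in wild-type FK228 and 0.992 (0.691 to 1.28) in wild-type solvent libraries. In both genotypes the treated libraries lay below all solvent libraries. Ntrk3 over Ntf3 was 0.0183 (0.0157 to 0.0204) in heterozygous FK228 and 0.0457 (0.0306 to 0.0688) in heterozygous solvent libraries, and 0.0279 (0.0206 to 0.0363) in wild-type FK228 and 0.0547 (0.0379 to 0.0893) in wild-type solvent libraries. Ntrk2 over Ngfr was 0.101 (0.0940 to 0.106) in heterozygous FK228 and 0.326 (0.266 to 0.377) in heterozygous solvent libraries, and 0.127 (0.0991 to 0.155) in wild-type FK228 and 0.471 (0.254 to 0.651) in wild-type solvent libraries. These ratios show unequal change, not which gene changed, and they were not tested.

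Ntf3 over Bdnf, the ratio of the ligand genes, was 5.49 (5.10 to 5.86) in heterozygous solvent and 3.85 (3.602 to 4.08) in wild-type solvent libraries, with no overlap. With FK228 it was 4.62 (3.09 to 6.31) in heterozygous and 3.79 (3.44 to 4.06) in wild-type libraries, with overlap. The separation in solvent was not tested, and no share of other gene pairs that separate in this way was computed. Neither gene was called between genotypes in solvent by edgeR (adjusted p = 0.347 for Bdnf and 0.990 for Ntf3). Gfra1 over Ret was 9.72 (9.32 to 10.4) in heterozygous FK228 and 17.6 (10.8 to 24.5) in heterozygous solvent libraries, and 10.04 (7.92 to 13.4) in wild-type FK228 and 12.3 (8.75 to 22.1) in wild-type solvent libraries.

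**Figure D3:**
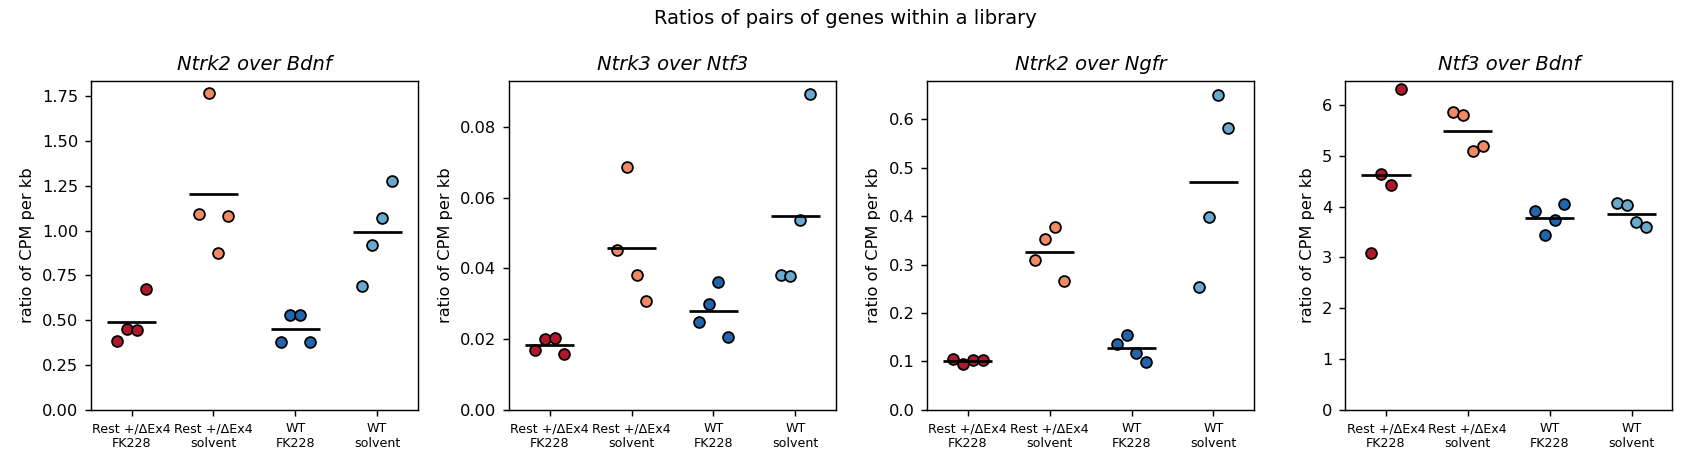
Ratios of CPM per kb between pairs of genes in each library, with points for libraries and lines for the mean of 4 libraries. Ntrk2 over Bdnf has means of 0.490 and 0.452 in the FK228 groups and 1.20 and 0.992 in the solvent groups.

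The genotype comparison asked what the Rest(+/deltaExon4) allele changed without and with the drug. In solvent, edgeR's quasi-likelihood test called 0 of the 8 genes, where 2.03% of all genes were called, and DESeq2 and limma voom also called 0. For none of the 8 did the libraries of the genotypes separate without overlap, as they did for 6.23% of all genes. The smallest p-values among the 8 genes were those of Ret and Bdnf. Ret had 4.19, 2.49, 2.36 and 2.60 CPM in heterozygous solvent libraries 1, 2, 4 and 5, against 3.39, 4.90, 5.50 and 5.63 CPM in wild-type solvent libraries 1 to 4. Only heterozygous library 1 reached the range of the wild-type libraries, and the log2 fold change was -0.73 ± 0.24 (adjusted p = 0.152). With the share of reads outside genes as a covariate Ret passed, at -0.78 (adjusted p = 0.0308). Bdnf had 5.45, 5.43, 8.48 and 7.26 CPM in heterozygous solvent libraries 1, 2, 4 and 5, against 11.2, 8.31, 9.03 and 8.39 CPM in wild-type solvent libraries 1 to 4. Heterozygous library 4 reached the lower wild-type values, and the log2 fold change was -0.47 ± 0.20 (adjusted p = 0.347).

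With FK228, the test again called 0 of 8 genes between genotypes, where 2.14% of all genes were called, and DESeq2 and limma voom also called 0. All 8 estimates were below 0, with a median of -0.26 beside -0.0038 for all genes, and leaving out 1 library turned the Gdnf, Gfra1 and Ret estimates to 0.11, 0.073 and 0.071 at most. The smallest p-values among the 8 belonged to Ntrk3 at -0.79 ± 0.25 (adjusted p = 0.133), Ntrk2 at -0.38 ± 0.17 (adjusted p = 0.333) and Bdnf at -0.45 ± 0.20 (adjusted p = 0.345). For Ntrk2 and Ntrk3 every heterozygous library was below every wild-type library, as for 4.37% of all genes. Spike-in scaling called 7 of the 8 genes lower, with the median of all genes at -0.74.

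Whether FK228 acted differently in the genotypes was tested as the difference of its log2 fold changes. None of the 8 passed in edgeR, where 0.0234% of all genes were called, and none in DESeq2 or limma voom. Ret, at 0.70 ± 0.33 (adjusted p = 0.855), had the smallest p-value of the 8. For Ntrk3 the difference was -0.57 ± 0.34 (adjusted p = 0.914) and for Ntrk2 -0.17 ± 0.23 (adjusted p = 0.994). With spike-in scaling 3 passed, Ngfr at -0.86, Ntf3 at -0.81 and Ntrk3 at -1.13 (highest adjusted p = 0.035), beside a median of -0.56 for all genes.

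Heterozygous cultures with FK228 were also set against wild-type cultures with solvent, which shares libraries with the comparisons above. There 4 of the 8 genes were lower and 0 higher, where 50.7% of all genes were called, 25.9% lower. Ntrk3 was at -1.92 ± 0.25 (adjusted p = 4.36e-06), a 3.79-fold fall, and Ntrk2 at -1.65 ± 0.17 (adjusted p = 2.37e-07), a 3.13-fold fall. Of the ligands, Bdnf had 7.71, 5.93, 6.49 and 4.25 CPM in heterozygous FK228 libraries 2 to 5, all below the wild-type solvent values, and fell 1.52-fold (log2 fold change -0.60 ± 0.20, adjusted p = 0.0192). The Bdnf call was lost when heterozygous FK228 library 5 (adjusted p = 0.0705) or the first wild-type solvent library (adjusted p = 0.0667) was left out, and with the share of reads outside genes as a covariate (-0.30, adjusted p = 0.131). Ntf3 was at -0.42 ± 0.17 (adjusted p = 0.0499), and kept its call without heterozygous solvent library 4, wild-type solvent library 4 or wild-type FK228 library 1 or 4, but lost it in the other 12 of 16 such fits (adjusted p up to 0.197). The Ntf3 call was also lost with RLE factors, without a filter, with the stricter filter, with limma voom, with the sex mix as a covariate, and with the share of reads outside genes as a covariate (-0.17, adjusted p = 0.353). Without heterozygous FK228 library 5 the 4 calls were 2. Just short of a call lay Ngfr at 0.44 ± 0.18 (adjusted p = 0.05002; -0.41 with spike-in scaling) and Gdnf at -1.54 ± 0.64 (adjusted p = 0.0531), and DESeq2 called both (adjusted p = 0.034 and 0.0395). Libraries of these groups did not overlap for 4 genes, Bdnf, Ntf3, Ntrk2 and Ntrk3, all lower, as were 23.4% of all genes.

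Other genes of the same pathways were read from lists of partners, signalling proteins, feedback inhibitors and response genes. Of 13 neurotrophin partners tested, 5 fell and 3 rose with FK228 in heterozygous cultures and 6 fell and 3 rose in wild-type cultures (median 0.0071 and -0.017). Sorcs3, a sortilin family receptor, fell 4.90-fold in heterozygous (log2 fold change -2.29 ± 0.22, adjusted p = 1.22e-07) and 4.67-fold in wild-type cultures (-2.22 ± 0.21, adjusted p = 1.17e-07). Nradd, a relative of p75, fell 3.13-fold and 3.79-fold in heterozygous and wild-type cultures, and Maged1, a p75-binding protein, fell 1.88-fold and 1.67-fold. Furin, a protease that cleaves neurotrophin precursors, fell 1.56-fold and 1.46-fold.

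Of 12 GDNF family partners, 3 fell and 3 rose in heterozygous and 3 fell and 4 rose in wild-type cultures (median -0.10 and 0.06). Nrtn, which encodes the GDNF relative neurturin, rose 2.04-fold in heterozygous (1.03 ± 0.19, adjusted p = 0.00021) and 2.68-fold in wild-type cultures (1.42 ± 0.19, adjusted p = 8.3e-06). With spike-in scaling its rise in heterozygous cultures missed the threshold (0.34, adjusted p = 0.220). Ncam1, an adhesion molecule that can also bind GDNF, rose 2.32-fold and 2.18-fold in heterozygous and wild-type cultures. Gas1, a relative of the GFRα co-receptors, fell 2.24-fold and 2.10-fold.

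Among 38 genes of receptor signalling, 10 fell and 7 rose in heterozygous and 9 fell and 12 rose in wild-type cultures (median -0.05 and -0.09). With spike-in scaling 27 fell and 1 rose in heterozygous and 10 fell and 3 rose in wild-type cultures. Akt2, a kinase downstream of Trk and RET, fell 2.10-fold and 2.13-fold in heterozygous and wild-type cultures, and Mapk3, which encodes ERK1, fell 1.46-fold and 1.50-fold. Nras, a RAS GTPase, was the 1 list gene called between genotypes with FK228, at -0.45 ± 0.08 (adjusted p = 0.00496).

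Of 8 feedback inhibitors of these kinases, 3 fell and 0 rose in heterozygous cultures (5 fell without heterozygous solvent library 4, all 8 with spike-in scaling and 2 without a filter) and 6 fell and 0 rose in wild-type cultures (median -0.37 and -0.51). Spry2, a Sprouty protein, fell 2.26-fold in heterozygous (-1.17 ± 0.10, adjusted p = 2.37e-08) and 1.92-fold in wild-type cultures (-0.94 ± 0.10, adjusted p = 3.48e-07). Of 10 response genes, 2 fell and 2 rose in heterozygous and 2 fell and 1 rose in wild-type cultures (4 fell and 1 rose without wild-type solvent library 1, 3 fell and 2 rose with the share of reads outside genes as a covariate). With spike-in scaling 6 response genes fell and 1 rose in heterozygous cultures. Etv4 and Etv1, ETS transcription factors, fell 2.38-fold and 1.82-fold in heterozygous and 3.58-fold and 2.03-fold in wild-type cultures. Arc, an immediate early gene of neurons, rose 4.79-fold and 2.65-fold in heterozygous and wild-type cultures. The numbers of list genes called lie beside backgrounds of 48.4% and 49.0%.

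**Figure D4:**
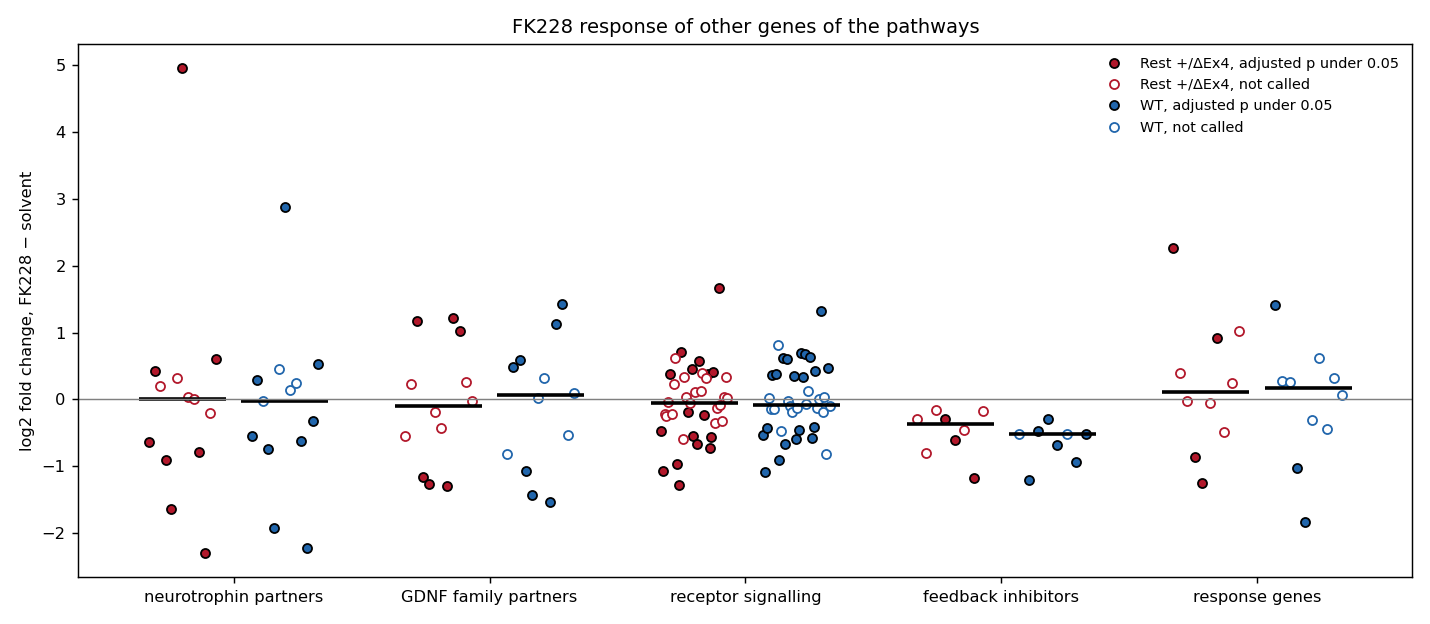
Log2 fold change with FK228 of every tested gene of 5 pathway lists, in heterozygous and wild-type cultures, with filled points for an adjusted p under 0.05 and a black line for the list median. All 8 feedback inhibitors lie below 0 in both genotypes, at -0.16 to -1.17 in heterozygous and -0.29 to -1.21 in wild-type cultures.

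Neuron markers such as Tubb3 and Nefl had a summed level of 357 CPM (312 to 437) in heterozygous FK228 and 217 CPM (164 to 274) in heterozygous solvent libraries, and 632 CPM (437 to 783) in wild-type FK228 and 407 CPM (321 to 577) in wild-type solvent libraries. Of 12 markers 7 rose and 1 fell in heterozygous and 5 rose and 3 fell in wild-type cultures. For this and the other marker counts with FK228, the backgrounds are again 48.4% and 49.0% of all genes called. With spike-in scaling the heterozygous neuron sums were level, at 239.4 CPM with FK228 and 239.2 CPM with solvent. Between genotypes in solvent 6 of the 12 neuron markers were called lower, where 2.03% of all genes were called in either direction. Hair cell markers summed to 420 CPM (385 to 454) in heterozygous FK228 and 343 CPM (302 to 412) in heterozygous solvent libraries, and with spike-in scaling the order was the opposite, at 284 CPM and 379 CPM. Counted singly, 3 of 12 hair cell markers fell and 1 rose in heterozygous cultures (median -0.76) and 6 fell and 1 rose in wild-type cultures (median -0.49), so the sum and the median of this list differ in sign. In heterozygous cultures 6 fell and 1 rose without heterozygous solvent library 2, and 9 fell and 0 rose with spike-in scaling. Supporting cell markers summed to 4419 CPM (4039 to 4898) in heterozygous FK228 and 5177 CPM (4580 to 6375) in heterozygous solvent libraries, with 7 of 12 lower and 0 higher in heterozygous (12 lower with spike-in scaling) and 5 lower and 1 higher in wild-type cultures. Macrophage markers, 10 of 10 of which fell in both genotypes, summed to 34.9 CPM in heterozygous FK228 and 385 CPM in heterozygous solvent libraries. Endothelial markers, with 3 of 6 lower in each genotype (6 in heterozygous cultures with spike-in scaling), and melanocyte markers, with 1 of 5 lower in heterozygous and 4 of 5 in wild-type cultures, were measured too. For melanocyte markers the wild-type count was 2 with the stricter filter, with only the compared groups, with either covariate, and without wild-type solvent library 1, 2 or 4 or wild-type FK228 library 2 or 7. The heterozygous count was 2 with spike-in scaling, both lower, and without heterozygous solvent library 1, with 1 lower and 1 higher. The part of these cell types in the results was not tested.

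Genes with the most similar pattern were sought among 14377 genes by the root mean square difference of log2 CPM over the 16 libraries, each gene centred on its mean. Nearest to Ntrk2 were Arhgef40 at 0.17, Bmp5 at 0.19 and Epdr1 at 0.19, where the spread of Ntrk2 itself was 0.71. Nearest to Ntrk3, with a spread of 0.79, were Bmp5 at 0.26, Eya4 at 0.28 and Trabd2b at 0.29. Bmp5, which encodes a bone morphogenetic protein, thus came up for both Trk genes. For Ngfr (spread 0.32) they were Gopc, Cir1 and Ttyh2, at 0.16 to 0.18, and for Ntf3 (spread 0.27) Pigc, Nosip and Eid1, at 0.13 to 0.15. The Ret neighbours Kif9, Sned1 and Trim23 differed from it by 0.25 (spread 0.40), and those of Gdnf, Qprt, Spon1 and Lbp, by 0.55 (spread 1.00). All these distances share the same libraries and are a description.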

How the data were processed

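Total RNA, primed with oligo dT, was sequenced in 16 libraries, 4 per group. Each library has its own deposited file of raw read counts per gene. STAR 2.5.2a and the build GRCm38.p4 are named in the submitters' processing notes. A second deposited table, whose values are a normalized signal (21220 genes), comes from DESeq2 according to these notes, and 100% of its values were whole reads within 0.01 once multiplied by the size factors. The unstranded counts were used, because each strand held near-equal shares (49.8% to 49.9% of reads on the first strand). Lines that name no gene stayed out of library sizes. Reads outside genes made up 11.2% to 22.2% of the reads counted to a row, to no gene or to several genes.

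Genes kept by filterByExpr (minimum count 10, minimum total 15; 17125 genes) went into a quasi-likelihood fit of edgeR 4.0.16 under R 4.3.3, with TMM factors and a mean per group over all 16 libraries. P-values were adjusted by Benjamini-Hochberg over all genes tested, and a call needs an adjusted p under 0.05. CPM values are TMM-scaled, and levels per kb use the exon union of GENCODE M21. Library counts set the precision: a gene with few reads, such as Gdnf, carries a large counting error.

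Alternatives were DESeq2 1.42.0, limma 3.58.1 (voom with quality weights), RLE factors, spike-in scaling, no filter, a minimum count of 30, the compared groups alone, a block for the replicate number, the sex mix of the pools or the share of reads outside genes as a covariate, and each library left out in turn. The tests were first run on simulated counts. The members, gene lists and tests were chosen with earlier results of these data known. Named list genes are up to 4 per list and comparison with the smallest adjusted p, and likeness was computed for members called for FK228 or for genotype in at least 1 comparison. Some single genes of the lists are not reported here.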

Additional observations from a re-analysis of the deposited data

Results flagged for a closer look

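Among 32 groups of 4 values (8 genes in 4 groups), 3 held a library set apart from the other libraries by most of the range of the group. Chance gives about 1 such group in 20. Ret was at 4.19 CPM in heterozygous solvent library 1, where the other libraries of that group were at 2.36 to 2.60 CPM. Gfra1 was at 46.7 CPM in heterozygous solvent library 4, where the others were at 35.5 to 37.0 CPM. Gfra1 was also at 60.6 CPM in wild-type solvent library 1, where the others were at 37.8 to 39.9 CPM. Heterozygous solvent library 4 and wild-type solvent library 1 hold the lowest shares of reads outside genes, at 11.2% and 11.6%, and the part of that share in these values was not tested.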

How the results depend on the processing

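Over 1233 alternative values of the 48 log2 fold changes of the 8 genes, 1091 kept their direction and their side of the threshold, 57 lost a call, 43 gained one and 42 changed sign. The FK228 calls of Ntrk2 and Ntrk3 held in every fit run. The number of the 8 genes called for FK228 in heterozygous cultures was 5, and 2 to 5 with each library left out. It was 3 with no filter, with the replicate block or with the reads-outside-genes covariate, and 7, all lower, with spike-in scaling. For FK228 in wild-type cultures it was 2 to 3 with a library left out, and for heterozygous FK228 against wild-type solvent it was 2 to 5, and 7 with spike-in scaling, in place of 4. Spike-in scaling gave 7 in place of 0 for genotype with FK228 and 3 in place of 0 for the difference of FK228 effects. The covariate gave 1 in place of 0 for genotype in solvent. For these changes the cause was not tested.

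Signs changed as follows. With the reads-outside-genes covariate, FK228 gave 0.16 for Bdnf and 0.0031 for Gfra1 in heterozygous cultures and 0.13 for Bdnf and 0.043 for Ntf3 in wild-type cultures. Spike-in scaling gave -0.51 for Bdnf and -0.46 for Gfra1 in the difference of FK228 effects, -0.48 for Ngfr and -0.13 for Ret with FK228 in heterozygous cultures, and -0.15 for Ntf3 between genotypes in solvent. For heterozygous FK228 against wild-type solvent it gave -0.41 for Ngfr, -0.15 for Dok5 and -0.083 for Ptpn11. The sex mix covariate gave -0.051 for Bdnf in the difference of effects and -0.31 for Gdnf between genotypes in solvent. With a library left out, FK228 in heterozygous cultures ranged from -0.26 to 0.012 for Bdnf and in wild type from -0.20 to 0.034 for Ret. The difference of effects ranged from -0.11 to 0.16 for Bdnf, -0.95 to 0.11 for Gdnf and -0.041 to 0.26 for Gfra1. Genotype with FK228 ranged from -0.69 to 0.11 for Gdnf, -0.15 to 0.073 for Gfra1 and -0.17 to 0.071 for Ret, and genotype in solvent from -0.39 to 0.65 for Gdnf, -0.085 to 0.16 for Ntf3 and -0.40 to 0.0029 for Ntrk3. Heterozygous FK228 against wild-type solvent ranged from -0.24 to 0.012 for Ret.

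Replicate numbers did not pair the libraries. The mean of its group was subtracted from the log2 CPM of each gene. These deviations correlated at -0.231 to 0.169 between same-numbered libraries of different groups. With the replicate number as a block, Gdnf between genotypes in solvent was -0.065 and Ngfr between genotypes with FK228 was 0.033. The block took the call from Ngfr for FK228 in wild type (adjusted p = 0.117), from Ntf3 (0.138) and Ret (0.0981) for FK228 in heterozygous cultures and from Bdnf (0.0967) and Ntf3 (0.156) for heterozygous FK228 against wild-type solvent. It gave a call to Gdnf for FK228 in wild type (-1.66, adjusted p = 0.0388) and for heterozygous FK228 against wild-type solvent (-1.88, adjusted p = 0.0172), and changed no other call of the 8 genes.

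Counts of all genes called moved by over 1.5 times for genotype in solvent (347; DESeq2 550, replicate block 211), for genotype with FK228 (366; DESeq2 638, replicate block 107, reads-outside-genes covariate 595, spike-in scaling 12857, down to 188 with a library left out) and for the difference of effects (4; DESeq2 16, limma voom 2, no filter 10, replicate block 0, sex mix covariate 2, reads-outside-genes covariate 8, spike-in scaling 4069, 2 to 6 with a library left out). Higher calls made up 48.4% of FK228 calls in wild type and 49.0% in heterozygous cultures, and 30.8% and 7.003% with spike-in scaling. For genotype they made up 59.4% in solvent and 56.6% with FK228, and 35.1% and 0.747% with spike-in scaling, and for heterozygous FK228 against wild-type solvent 49.0% and 5.03%. Of 676 list counts recomputed, a choice made after the data were seen, 653 stayed within 1.5 times. The stricter filter removed Gdnf, so it has no value there. Depth limits Gdnf, at 1 to 45 reads.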

Other observations

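Ntf5, which encodes neurotrophin 4, had 16 to 26 reads in heterozygous FK228 and 9 to 23 reads in heterozygous solvent libraries, and 24 to 38 reads in wild-type FK228 and 17 to 31 reads in wild-type solvent libraries. It was not called with FK228, at 0.32 ± 0.34 (SE, adjusted p = 0.474) in heterozygous and 0.46 ± 0.33 (adjusted p = 0.258) in wild-type cultures.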
